A study of Arabidopsis thaliana with 6 samples.

Results

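Heat shock transcription factors (HSFs) were examined in mature pollen of Arabidopsis thaliana as 10 loci chosen by name: HSFA2, HSFA3, HSFA4A, HSFA4C, HSFA5, HSFA6A, HSFA6B, HSFA7A, HSFA7B and HSFB1. They are 10 of the 21 HSF loci of this plant and 10 of 27827 features on the array. Pollen of NOT1+/- plants, which carry a mutant NOT1 allele beside a normal copy, was set against pollen of wild-type (WT) plants, with 3 samples of each and all plants of ecotype Columbia 0. NOT1 is the scaffold protein of CCR4-NOT, which removes poly(A) tails from mRNAs. Plants of both genotypes flowered at 22 °C by day and 18 °C by night with 16 h of light, and the labels describe no heat treatment. About 300000 intact grains per sample were sorted by fluorescence, and 100 ng of total RNA was labelled for an Affymetrix Arabidopsis array with 1 colour, whose feature names end in _at. Each replicate is labelled as a biological replicate. Grains of a heterozygous plant segregate, so a NOT1+/- sample holds grains with and without the mutant allele, and the labels do not describe the mutation further.

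HSFs are trimeric DNA-binding proteins that recognise repeats of a short element in the promoters of heat shock genes. In plants they form 3 classes. Class A factors carry activation motifs; within it the HSFA1 group starts the heat response, and HSFA2, HSFA3, HSFA7A and HSFA7B are themselves induced by heat and extend it. Class B factors lack those activation motifs and several act as repressors, and class C is small. In unstressed cells HSP70 and HSP90 chaperones hold HSFA1 proteins inactive. Pollen is known as a heat-sensitive stage of plant development.

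The values are linear intensities, 1 per locus and array, with array medians of 12.31, 12.03 and 12.11 in NOT1+/- and 13.03, 13.13 and 12.33 in WT. No detection calls were available, so a value near or below the median of its array may be background, and intensities of different loci are not set against each other here. The log2 difference is NOT1+/- minus WT, estimated with limma in a fit to the whole array, and a call means a Benjamini-Hochberg adjusted p under 0.05. Across all features the median log2 difference was -0.10, and 2461 were called higher and 896 lower, together 12.1%. NOT1 (AT1G02080) itself had 28.6, 31.82 and 32.57 in NOT1+/- and 47.62, 51.02 and 46.91 in WT (log2 difference -0.65, SE 0.15, limma adjusted p = 0.029). Its call was lost without any 1 of the 6 arrays (adjusted p 0.0527 to 0.118), under the replicate block (0.0696) and after median centring (0.0546). Pollen vegetative cell markers were bright in both genotypes. Their summed intensity over 5 genes was 9523 to 9635 in NOT1+/- and 8723 to 9413 in WT. Among them ACT12 was called higher (log2 difference 0.96, SE 0.15, limma adjusted p = 0.0052). The other 4 were not called, with log2 differences from -0.17 to 0.09. The sum over 4 sperm cell markers was 327 to 509 in NOT1+/- and 267 to 287 in WT. Of these 4, MGH3 (log2 difference 0.75) and DUO1 (1.08) were called higher, with limma adjusted p of 0.043 and 0.012, while HAP2 (0.31) and GEX2 (-0.09) were not called and overlapped between genotypes. The sum over 4 leaf markers was 26.54 to 35.35 in NOT1+/- and 37.14 to 41.2 in WT. All leaf marker values but RBCS1A in WT replicate 1 and CAB1 in WT replicate 3 were below the array medians and may be background. CAB2 was called lower (log2 difference -0.72, limma adjusted p = 0.045), with all 6 values below the array medians, and the other 3 were not called. Over 4 tapetum markers it was 68.4 to 81.7 in NOT1+/- and 75.6 to 86.8 in WT, and over 3 petal and stamen markers 32.1 to 43.5 in NOT1+/- and 33.8 to 35.7 in WT. Whether sperm number or any other change in cell content had a part in the results below was not tested, and fewer cells of a type cannot be told apart from less RNA per cell. On the second principal component, which held 14.3% of the variance, WT replicate 3 stood apart from the other 5 arrays.

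Among the 10 factors the low value of HSFA6A in NOT1+/- pollen stood out. HSFA6A (AT5G43840_at), a class A factor known for induction by salt, drought and abscisic acid, had intensities of 10.03, 9.97 and 5.67 in NOT1+/- and 30.49, 33.46 and 24.86 in WT. All 3 NOT1+/- values lay below all 3 WT values, with a wide gap between the groups. Every WT value was above the median of its array and every NOT1+/- value below it. The means were 8.56 ± 2.50 in NOT1+/- and 29.6 ± 4.37 in WT (SD, n = 3 arrays each). The log2 difference was -1.83 (SE 0.26, 95% interval -2.43 to -1.23), or 28.2% of the WT level. Because the NOT1+/- values may be background, the size is uncertain: with 16 units added before log2 the difference was -0.89. Without any 1 array it lay between -1.97 and -1.55, which does not speak to its direction, since the groups do not overlap.

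The other 9 factors differed far less, with log2 differences from -0.37 to 0.16 and 95% intervals that all held 0. In 8 of these 9 the difference was negative, as it was for 60.3% of all features, and their median was -0.23. Counting all 10, HSFA6A alone passed the limma threshold, as a lower value, where 3.22% of all features were called lower. In 3 of the 10, namely HSFA3, HSFA4C and HSFA6A, all NOT1+/- values lay below all WT values, against 16.9% of all features; in 0 of the 10 all lay above, against 14.9%. These counts and differences come from the contrast with which the 10 loci were chosen, so they describe the loci and test nothing about them.

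**Figure D1:**
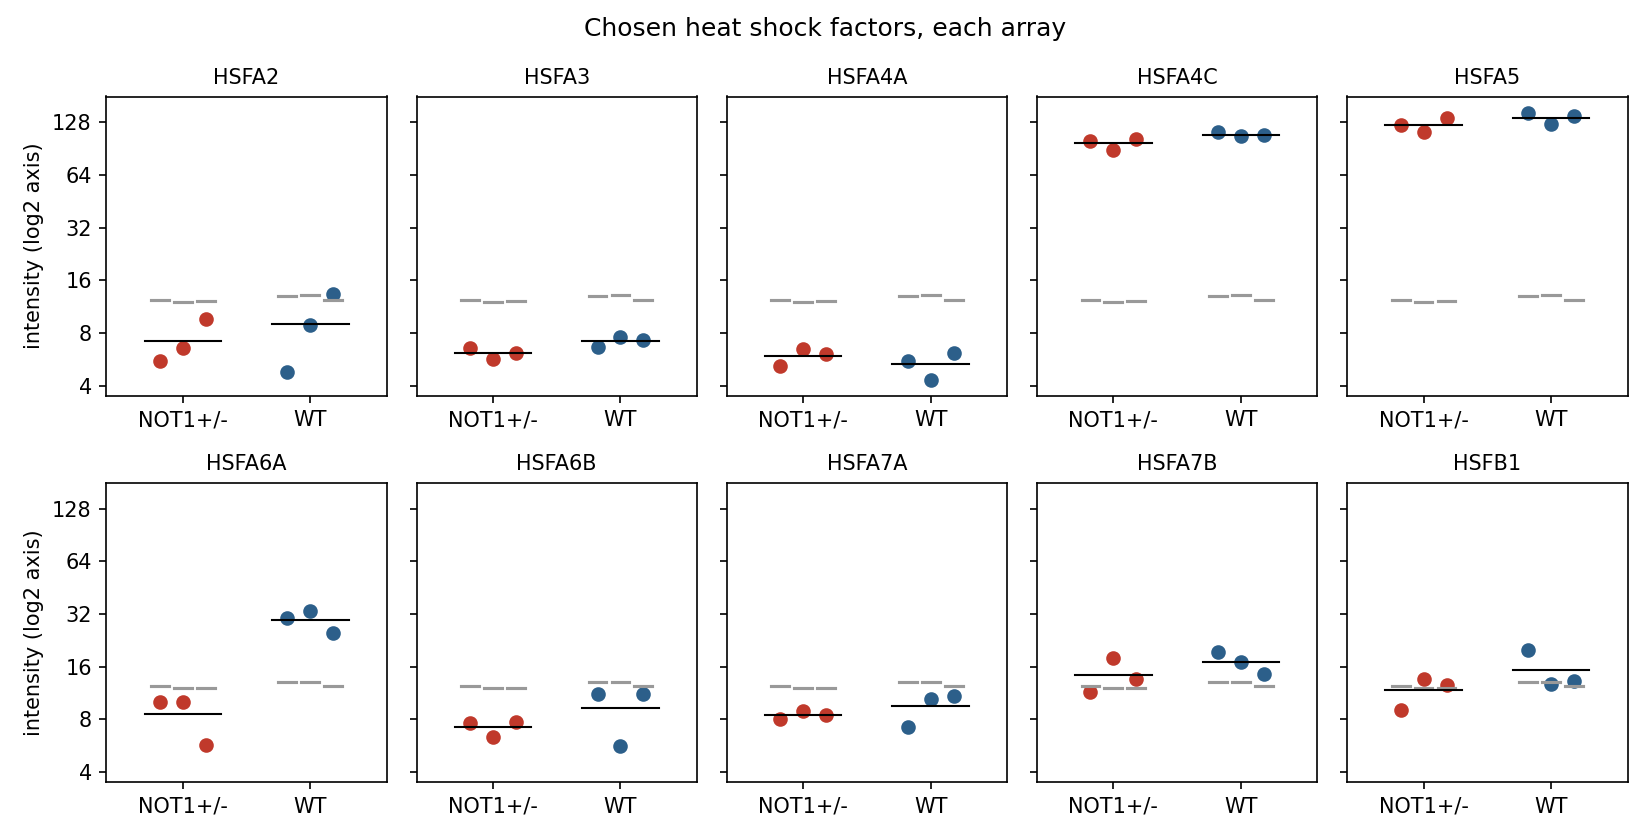
Intensity of each of the 10 factors on a log2 axis, with 1 point per array (3 NOT1+/- in red on the left, 3 WT in blue on the right), the group mean as a black line and the median of each array as a grey tick. HSFA6A is below the grey ticks in NOT1+/- and above them in WT, HSFA4C and HSFA5 are far above the ticks in both genotypes, and HSFA3, HSFA4A, HSFA6B and HSFA7A are below them on all 6 arrays.

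HSFA4C and HSFA5 were the pair of chosen factors with a signal well above the array medians on all 6 arrays. HSFA4C (AT5G45710_at), first found through a root mutant with altered gravity and auxin responses, had 99.82, 88.84 and 103.43 in NOT1+/- and 112.16, 106.64 and 108.15 in WT. The NOT1+/- values were all lower, but by little: the means were 97.4 ± 7.60 in NOT1+/- and 109 ± 2.85 in WT (SD, n = 3 arrays each), and the log2 difference was -0.17 (SE 0.15, 95% interval -0.52 to 0.19). With the scaling as deposited the interval runs from 69.9% to 114% of the WT level. HSFA5 (AT4G13980_at), which in tomato and Arabidopsis is known to bind HSFA4 proteins and hold back their activity, had 124.19, 112.96 and 136.17 in NOT1+/- and 144.27, 125.46 and 139.53 in WT. Here the groups overlapped, and the log2 difference was -0.13 (SE 0.16, interval -0.50 to 0.24, or 70.5% to 118% of WT). The near-level values of these bright loci depend on the scaling between arrays. Quantile normalization, which pulls bright features of NOT1+/- arrays down because their upper percentiles are higher (95th percentiles of 193 to 202 in NOT1+/- and 133 to 141 in WT), gave -0.58 for HSFA4C and -0.61 for HSFA5, and both then passed the threshold; the other rescalings left them between -0.26 and -0.06.

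HSFA4A (AT4G18880_at), the close relative of HSFA4C that is known for its part in responses to oxidative stress, was the only one of the 10 with a positive difference. It had 5.18, 6.49 and 6.07 in NOT1+/- and 5.52, 4.29 and 6.16 in WT, and the log2 difference was 0.16 (SE 0.19, 95% interval -0.29 to 0.61). All 6 values lay below the array medians and the groups overlapped, so a transcript level for HSFA4A was not resolved in either genotype.

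Of the heat-inducible activators, HSFA2, HSFA3 and HSFA7A were dim on most or all arrays. HSFA2 (AT2G26150_at), the factor most strongly induced by heat in leaves and the one that sustains acquired thermotolerance, had 5.55, 6.55 and 9.58 in NOT1+/- and 4.77, 8.83 and 13.43 in WT. The WT arrays spread over a 2.82-fold range, and only the value of WT replicate 3 was above the median of its array. The log2 difference was -0.23 with an SE of 0.38, and the 95% interval ran from 46.0% to 157% of the WT level, the widest in percent among the 10. The difference was -0.63 without WT replicate 1 and 0.12 without WT replicate 3, so its direction turned on 1 array. HSFA3 (AT5G03720_at), which in the heat and drought response acts downstream of DREB2A, had 6.54, 5.66 and 6.11 in NOT1+/- and 6.65, 7.53 and 7.32 in WT. The groups did not overlap, although the gap was narrow and all 6 values were below the array medians. The log2 difference was -0.23 (SE 0.15, 95% interval -0.59 to 0.13).

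HSFA6B (AT3G22830_at), the relative of HSFA6A that links abscisic acid to heat tolerance, had 7.58, 6.33 and 7.67 in NOT1+/- and 11.1, 5.63 and 11.09 in WT. WT replicate 2 was lower than every NOT1+/- array while the other two WT arrays were higher. The log2 difference was -0.30 (SE 0.28, 95% interval -0.96 to 0.35), against the -1.83 of HSFA6A. It was -0.63 without WT replicate 2 and -0.14 without WT replicate 1 or 3. The difference between the relatives was not tested, as both were chosen with these values known. HSFA7A (AT3G51910_at) had 8.03, 8.87 and 8.48 in NOT1+/- and 7.19, 10.49 and 10.9 in WT (log2 difference -0.15, SE 0.20). HSFA7B (AT3G63350_at) had 11.43, 17.9 and 13.59 in NOT1+/- and 19.44, 16.96 and 14.51 in WT (-0.26, SE 0.22). Both genes are known to be induced by heat through HSFA1 factors, and in both the groups overlapped. HSFA7B was above the array median on 5 of 6 arrays, HSFA7A on 0 of 6.

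HSFB1 (AT4G36990_at), the class B member of the set, represses heat shock genes as the response ends and is also known as a switch between growth and defence whose translation is held back by upstream reading frames. It had 9.01, 13.65 and 12.58 in NOT1+/- and 19.81, 12.71 and 13.26 in WT, above the array median on 4 of 6 arrays. WT replicate 1 was well above the other 5 arrays, which overlapped between genotypes. The log2 difference of -0.37 (SE 0.24, 95% interval -0.94 to 0.20) became -0.17 without that array and lay between -0.49 and -0.19 without each of the others. The feature AT4G36988 carried the same 6 values, and why the features share them was not tested.

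The remaining 11 HSF loci of the family were tested in the same fit, and limma called 0 of them, where 12.1% of all features were called. At an unadjusted p under 0.05 there were also 0 of the 11, and 7144 of the 27827 features. Their log2 differences ran from -0.38 to 0.22 with a median of -0.14, close to the -0.10 of all features. Among the 4 HSFA1 factors that start the heat response, HSFA1A (AT4G17750) had 121.29, 114.14 and 127.54 in NOT1+/- and 131.83, 143.72 and 129.87 in WT. Its values did not overlap between genotypes, and the log2 difference was -0.16 (SE 0.15, limma adjusted p = 0.56, 95% interval from 70.3% to 114% of WT). Like HSFA4C and HSFA5 it was lower after quantile normalization, at -0.63 (limma adjusted p = 0.027). HSFA1D (AT1G32330) had 21.06, 22.59 and 28.55 in NOT1+/- and 29.04, 33.86 and 26.53 in WT (-0.31, SE 0.19, limma adjusted p = 0.34). HSFA1B and HSFA1E had 0.07 (SE 0.19) and 0.04 (SE 0.21), with HSFA1B below the array medians throughout.

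The class B and C factors and the 2 other class A factors showed no call either. HSFB2A, known for a role in female gametophyte development, had 39.28, 35.31 and 24.53 in NOT1+/- and 23.64, 31.45 and 29.05 in WT (log2 difference 0.22, SE 0.22, limma adjusted p = 0.59). Its relative HSFB2B, which represses heat shock genes together with HSFB1, had 16.06, 15.56 and 20.32 in NOT1+/- and 16.38, 19.16 and 35.56 in WT, where WT replicate 3 stood apart (-0.38, SE 0.30, adjusted p = 0.48; -0.04 without that array). HSFB3 had -0.14 (SE 0.22), and HSFB4, needed for stem cell divisions in the root, had -0.05 (SE 0.18). HSFA8 and the seed factor HSFA9 had -0.21 (SE 0.17) and -0.22 (SE 0.22), and HSFC1, the only class C factor, had -0.05 (SE 0.41). Over the whole family of 21, then, 17 differences were negative (81.0%, beside 60.3% of all features). Only 1, that of HSFA6A, was past the threshold, as a lower value, where 3.22% of all features were called lower. The intervals of the other 20 held 0. These counts pool the loci chosen with this contrast, HSFA6A among them, with the rest of the family, so they describe the family and test nothing about it.

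**Figure D2:**
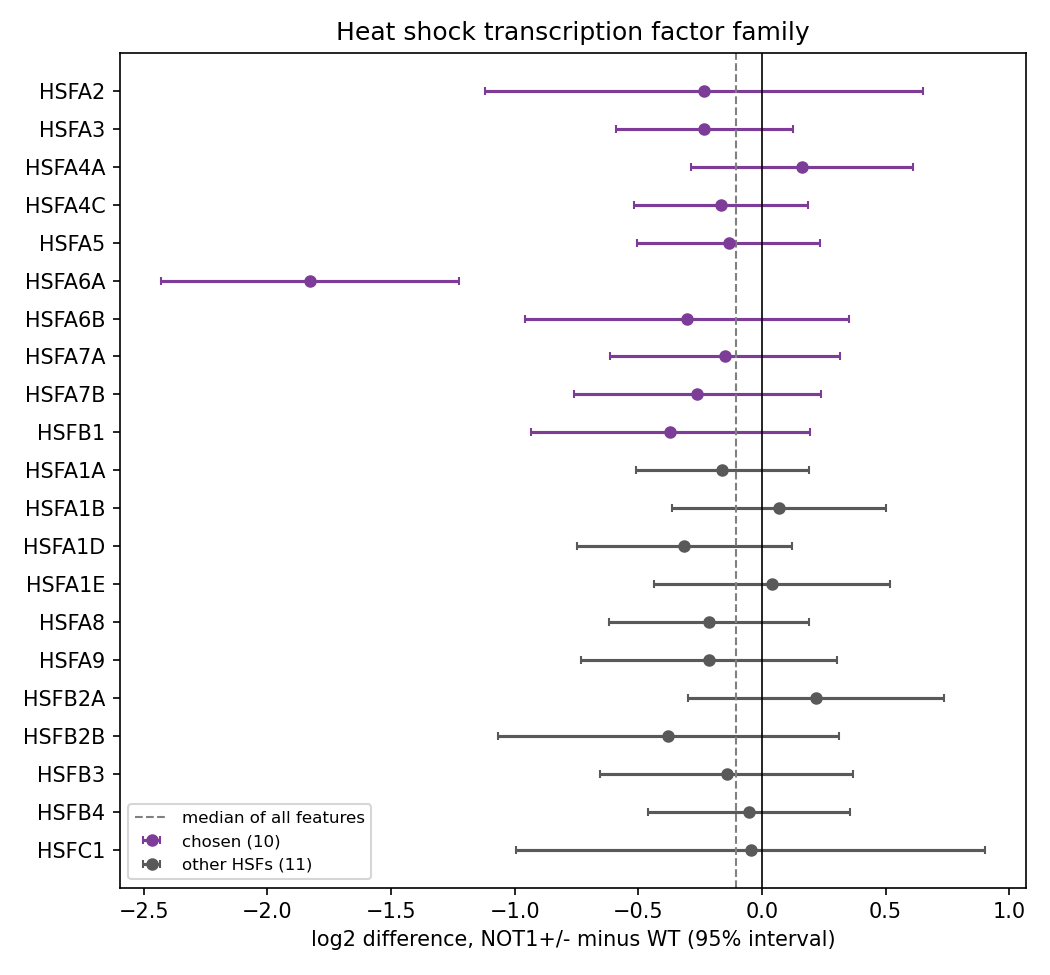
Log2 difference, NOT1+/- minus WT, of all 21 HSF loci, with points for the estimates and bars for 95% intervals (purple, the 10 chosen loci; grey, the other 11); the dashed line marks the median of all features, -0.10. The interval of HSFA6A, -2.43 to -1.23, is the only one that does not hold 0.

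Genes known to activate, bind or modify HSFs moved in both directions. Of 18 such genes, 4 rose and 2 fell in NOT1+/- pollen by limma, where 8.84% of all features were called higher and 3.22% lower, and 12 did not pass. The median log2 difference of these 18 genes was 0.04, beside -0.10 over all features. The list, like the target list below, was drawn up with earlier results of these data known. Among transcription factors upstream of HSFs, DREB2A (AT5G05410), a drought and heat factor that activates HSFA3, had 11.48, 11.54 and 21.14 in NOT1+/- and 34.51, 30.38 and 29.69 in WT. NOT1+/- replicate 3 was nearer to the WT arrays than the other NOT1+/- arrays were. DREB2A fell to 44.8% of the WT level (log2 difference -1.16, SE 0.26, limma adjusted p = 0.025), although its call was lost without WT replicate 1 or 2 or NOT1+/- replicate 1 or 2 (adjusted p 0.0632 to 0.102). The values of NOT1+/- replicates 1 and 2 were below the array medians, so the size is uncertain, and with 16 units added before log2 the difference was -0.64. Its relatives, named after their values were seen, did not pass: DREB2B had 0.29 (SE 0.23) and DREB2C, dim on all 6 arrays, -0.71 (SE 0.26, limma adjusted p = 0.13). NF-YC10, a partner of DREB2A in the heat response, also named afterwards, had 24.11, 24.06 and 19.97 in NOT1+/- and 16.39, 16.11 and 12.54 in WT (0.60, SE 0.18, adjusted p = 0.075, and 0.042 after median centring).

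The genes that rose encode proteins known to bind or modify HSFs. HSBP (AT4G15802), a small coiled-coil protein that binds HSF trimers and damps their activity, had 148.56, 125.48 and 118.87 in NOT1+/- and 59.05, 44.99 and 45.17 in WT. It rose 2.64-fold (log2 difference 1.40, SE 0.18, limma adjusted p = 0.0018), and no array of the 2 groups overlapped. HSC70-1 (AT5G02500), a cytosolic HSP70 that binds HSFs, had 48.32, 69.43 and 39.26 in NOT1+/- and 16.47, 19.52 and 15.23 in WT (1.58, SE 0.24, adjusted p = 0.0035). Its WT values were near the array medians, so the size is uncertain (1.03 with 16 units added before log2). The protein kinase MPK3 (AT3G45640) had 88.98, 72.9 and 78.78 in NOT1+/- and 31.79, 38.91 and 34.03 in WT (1.20, SE 0.17, adjusted p = 0.0024). Quantile normalization lowered the difference of HSBP to 1.01 and that of MPK3 to 0.90, and both still passed. MPK3 and its relative MPK6 phosphorylate HSFA4A, and MPK6, named after its values were seen, had a log2 difference of -0.14 (SE 0.15), or -0.77 with a limma adjusted p of 0.01 after quantile normalization. PP7 (AT5G63870), a calmodulin-binding phosphatase reported to interact with an HSF, had 46.28, 40.36 and 37.61 in NOT1+/- and 5.67, 6.83 and 6.77 in WT. Its log2 difference was 2.69 (SE 0.17, limma adjusted p = 4.1e-05), with WT values below the array medians, so the size is uncertain (1.35 with 16 units added before log2).

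ROF1 and ROF2 are peptidyl-prolyl isomerases that bind HSP90 and, through it, HSFA2. ROF1 (AT3G25230) had 43.49, 44.87 and 53.87 in NOT1+/- and 75.82, 77.48 and 73.51 in WT, and fell to 62.4% of the WT level (log2 difference -0.68, SE 0.16, limma adjusted p = 0.03). This call was lost under the replicate block (adjusted p = 0.0713), after median centring (0.0533) and without any 1 array but NOT1+/- replicate 3 (0.0607 to 0.12). ROF2, named after its values were seen, had 88.39, 91.05 and 84.19 in NOT1+/- and 103.15, 112.04 and 104.3 in WT (-0.28, SE 0.15, adjusted p = 0.29; after quantile normalization -0.69, adjusted p = 0.016). MBF1C, a heat-induced transcriptional coactivator, had 38.7, 39.24 and 32.22 in NOT1+/- and 41.08, 42.75 and 46.74 in WT (-0.25, SE 0.16, adjusted p = 0.39). For ROF2 and MBF1C the groups did not overlap, and the 95% intervals of both differences held 0.

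Genes that class A HSFs are known to activate were lower as far as they passed the test. Of 26 such genes 9 fell (34.6%, beside 3.22% of all features), 0 rose by limma (2 at an unadjusted p under 0.05), and 17 did not pass. The median log2 difference of the 26 was -0.54, beside -0.10 over all features, and in 14 of them all NOT1+/- values lay below all WT values, beside 16.9% of all features. In 3 of the 26 all NOT1+/- values lay above all WT values, beside 14.9% of all features. That heat shock genes tended to be lower was known when the list was drawn up, so its counts are no independent support. The summed intensity over the 26 genes was 574, 614 and 591 in NOT1+/- and 949, 966 and 951 in WT. The number of falls was 6 without NOT1+/- replicate 1 and 7 to 9 without each of the other arrays.

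The 9 that fell kept 41.5% to 57.6% of their WT level, and in 7 of them all 6 values were above the array medians. For HSP17.6II and HOP3, which had NOT1+/- values below the medians, the size is uncertain. With 16 units added before log2 the 9 differences lay between -0.84 and -0.47. HSP70 (AT3G12580), a heat-induced cytosolic HSP70, had 131.12, 140.41 and 133.66 in NOT1+/- and 206.29, 254.17 and 245.71 in WT (log2 difference -0.80, SE 0.16, limma adjusted p = 0.015). HSP70B, HSP90.1 and HSP101, the last a disaggregase needed for acquired thermotolerance, had -1.01 (SE 0.19), -1.14 (SE 0.20) and -0.995 (SE 0.16), with adjusted p between 0.0052 and 0.0113. BAG6 (AT2G46240), a calmodulin-binding co-chaperone, had 33.74, 32.52 and 32.51 in NOT1+/- and 62.84, 60.73 and 58.04 in WT (-0.88, SE 0.15, adjusted p = 0.0059). HOP3 (AT4G12400), a co-chaperone that links HSP70 to HSP90, had 8.01, 10.73 and 8.71 in NOT1+/- and 18.31, 19.52 and 18.92 in WT (-1.06, SE 0.17, adjusted p = 0.0051). Its NOT1+/- values were below the array medians, and with 16 units added the difference was -0.47.

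Of the cytosolic small heat shock proteins that fell, HSP17.6B (AT2G29500) had 31.62, 30.13 and 34.15 in NOT1+/- and 71.82, 73.58 and 65.07 in WT (log2 difference -1.13, SE 0.15, limma adjusted p = 0.002). HSP17.4 and HSP17.6II had -1.02 (SE 0.16) and -1.27 (SE 0.32; -0.64 with 16 units added). The call of HSP17.6II was lost under the replicate block (adjusted p = 0.0567) and without any 1 array but NOT1+/- replicate 2 (0.0682 to 0.117). HSP70 lost its call without WT replicate 2 or NOT1+/- replicate 1 or 2 (0.0519 to 0.0657), and HSP70B without NOT1+/- replicate 1 (0.055). HSP17.6C and HSP17.6A, named after their values were seen, had -0.60 (SE 0.17, adjusted p = 0.059) and -1.23 (SE 0.35, adjusted p = 0.064), with all NOT1+/- values below all WT values in each. Both passed under other settings, among them centring on the 75th percentile (adjusted p = 0.035 and 0.041). HSP18.2, also named afterwards, had -0.44 (SE 0.19, limma adjusted p = 0.18). HSP17.8, given below, went the other way, with all NOT1+/- values above all WT values.

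Among small heat shock proteins of organelles, HSP21 (chloroplasts), HSP22.0 (endoplasmic reticulum) and HSP23.6 (mitochondria), also named afterwards, did not pass. Their log2 differences were -0.08 (SE 0.29), -0.32 (SE 0.54) and -0.08 (SE 0.23). HSP21 was above the array median on 0 of 6 arrays, HSP22.0 on 1 and HSP23.6 on 3. The 4 targets with a positive difference, none of which passed in the fit to all features, were HSP17.8 (0.66, SE 0.22, limma adjusted p = 0.11, and 0.045 among features above the median level), the chloroplast disaggregase CLPB3 (0.46, SE 0.17, adjusted p = 0.14), HSP26.5 (0.36, SE 0.33) and HSP23.5 (0.34, SE 0.17). The 17 targets that did not pass had log2 differences from -1.23 to 0.66, and 4 of these 17 were above the array medians on all 6 arrays, against 7 of the 9 that fell. Those 4 went in both directions: HSP17.6C had -0.60, FES1A -0.48, HSP17.8 0.66 and CLPB3 0.46.

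**Figure D3:**
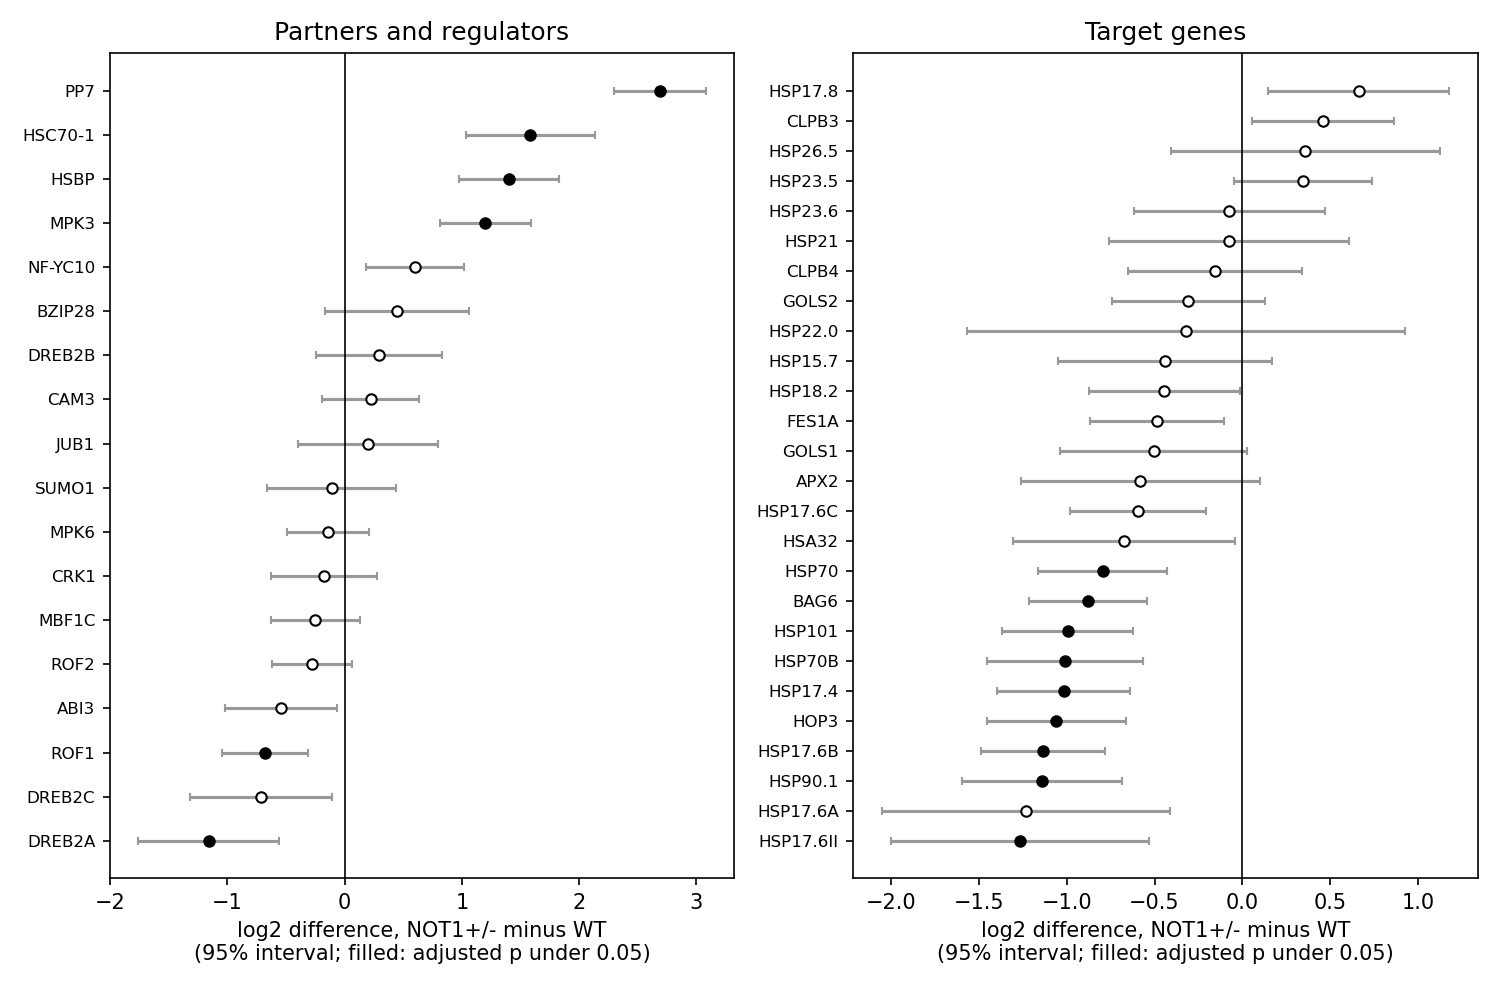
Log2 difference, NOT1+/- minus WT, with 95% intervals as bars, for 18 partners and regulators of HSFs (left) and 26 target genes (right), each sorted by the difference; filled points passed the limma threshold and open points did not. On the left PP7, HSC70-1, HSBP and MPK3 lie above 0 and ROF1 and DREB2A below it, while all 9 filled points on the right lie below 0.

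Features with a profile most like that of HSFA6A were sought by the root mean square difference of log2 values over the 6 arrays, each feature taken relative to its own WT mean. The nearest were UMAMIT34 (0.23 log2 units), of an amino acid transporter family, AT2G13125 (0.27), RABA1c (0.29), a small GTPase of vesicle traffic, PSK6 (0.34), a phytosulfokine precursor, and AT1G10900 (0.36). UMAMIT34 had 27.23, 27.93 and 20.39 in NOT1+/- and 102.08, 105.18 and 102.36 in WT, lower in all 3 NOT1+/- arrays, as the choice by likeness fixes. For HSFA4A, the factor with the most positive difference, the nearest were KUF1 (0.03), AT1G13190 (0.05), AT4G02300 (0.06), AT4G29360 (0.07) and FIE (0.07). As the choice by likeness fixes, these features differ as little between the genotypes as HSFA4A does. Their log2 differences were 0.13 to 0.18, and none was called.

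The direction of the 10 factors was followed under other processing. In 9 of 10 the difference was negative under each of the 3 rescalings of the arrays. The HSFA6A value lay between -1.92 and -1.75 under the rescalings. HSFA4C and HSFA5 moved the most with scaling, and HSFA2 with single arrays.

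**Figure D4:**
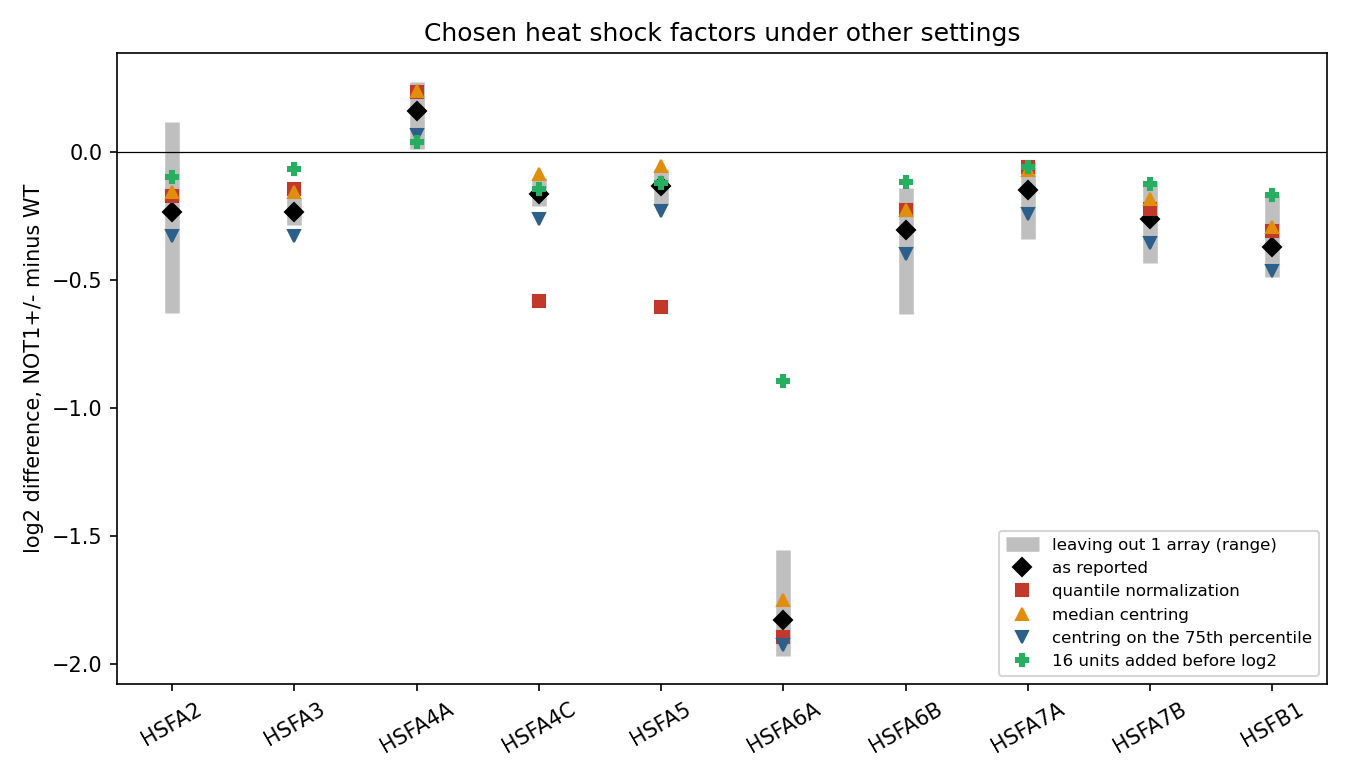
Log2 difference, NOT1+/- minus WT, of the 10 factors as reported (black diamonds), under 3 rescalings, with 16 units added before log2, and as the range over leaving out each array in turn (grey bars). HSFA6A stays between -1.97 and -0.89, quantile normalization lowers HSFA4C and HSFA5 to about -0.6, and the grey bar of HSFA2 runs from -0.63 to 0.12.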

How the data were processed

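Linear intensity values, 1 per locus and array, were deposited by the authors for 27827 features on 6 arrays. The submitters' processing notes name Affymetrix Expression Console. How it summarised probes, corrected background and scaled arrays is not stated in the labels, and the distributions differed between arrays. Log2 of the deposited intensities, with no offset or filter, went into limma 3.58.1 under R 4.3.3 (lmFit, eBayes, 1 coefficient, 95% intervals), with Benjamini-Hochberg adjustment over the whole array. Means ± SD are of linear intensities over 3 arrays; percentages of WT are ratios of geometric means. The number of arrays limits the precision. Scan dates and strip numbers were not analysed here, so no batch could be tested. A locus of the TAIR10.1 gene table was found for 27241 features, and it gave some symbols; names of HSFs and list genes are background knowledge.

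The 10 factors and all lists (11 other HSFs, 18 partners and regulators, 26 targets, cell markers) were chosen with earlier results of these data known. Named were all HSFs, up to 6 called genes per list and direction, HSBP, DREB2A, MBF1C, HSP101, HSP90.1, NOT1 and the features most like 2 factors; HSP70 and BAG6, called but outside the 6 largest falls, and other genes were named after their values were seen. Alternatives were a replicate block, array weights, eBayes with trend and robust, 3 rescalings, a filter on dim features, 16 units added before log2 and leaving out each array. The procedure was tested on simulated data. Figures were drawn with matplotlib 3.10.9.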

Additional observations from a re-analysis of the deposited data

How the results depend on the processing

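The numbers of calls moved with the processing as follows; the cause was not tested. Lower calls over all features, 896 as reported, were 555 with the replicate block, 1458 with trend and robust, 1991 after quantile normalization, 571 after median centring, 1460 after centring on the 75th percentile, 1515 among features above the median level, 1490 with 16 units added before log2 and 258 to 711 without 1 array. Quantile normalization gave 3 lower calls among the 10 chosen factors (HSFA4C and HSFA5 besides HSFA6A) and 1 among the other 11, HSFA1A (-0.63, adjusted p = 0.027). Falls among partners and regulators, 2 as reported, were 4 after quantile normalization, 1 with the replicate block, 1 after median centring and 0 to 2 without 1 array. Rises among targets, 0 as reported, were 1 among features above the median level and 0 to 1 without 1 array. Falls among targets numbered 6 to 12 over all settings, and 9 of the 9 were kept under each rescaling. The share of calls that were higher, 73.3%, was 52.5% after quantile normalization, 60.2% after centring on the 75th percentile and 82.5% after median centring.

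Genes that turned direction were not called in any of these settings: HSFA1B (-0.026) and HSFA1E (-0.054) after centring on the 75th percentile, HSFB4 (0.027), HSFC1 (0.032), HSP21 (0.00034) and HSP23.6 (0.0021) after median centring, and HSFC1 (0.054), DREB2B (-0.0093) and HSP21 (0.0097) after quantile normalization. Without 1 array the ranges were -0.63 to 0.12 for HSFA2, -0.011 to 0.19 for HSFA1B, -0.084 to 0.23 for HSFA1E, -0.38 to 0.015 for HSFA9, -0.37 to 0.0014 for HSFB3, -0.14 to 0.046 for HSFB4, -0.40 to 0.33 for HSFC1, -0.85 to 0.35 for HSP22.0, -0.34 to 0.16 for HSP21, -0.21 to 0.14 for HSP23.6 and -0.024 to 0.57 for HSP26.5. Same-numbered samples did not deviate together throughout (r = 0.11, 0.13 and -0.01 for replicates 1, 2 and 3 over all features). Samples with different numbers had r from -0.21 to 0.09, below the values of replicates 1 and 2. These values do not settle whether the samples are paired, and the numbers were not taken to pair them. The block ended the calls of NOT1, ROF1 and HSP17.6II, and 8 targets were then called lower. Over 715 combinations of a named gene and a setting, 637 kept direction and side of the threshold or, for the 10 chosen factors, moved by less than the spread between replicates. For the 10 factors only the estimate counted. The replicate block, trend and robust, and the filter on dim features cannot change it, so those combinations were kept in advance. The turn of HSFA2 to 0.12 without WT replicate 3 was also within its spread and is among the 637. Signals near or below the array medians limit what can be seen of HSFA2, HSFA3, HSFA4A, HSFA6B, HSFA7A, HSFA7B and HSFB1, and of HSFA6A in NOT1+/- pollen.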
